A study of Mus musculus with 24 samples.

Results

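The genes described here are 9 genes of the interferon response and of innate cytokine signalling, *Irf7*, *Ifit1*, *Ifit3*, *Isg15*, *Il1b*, *Il6*, *Tnf*, *Ccl2* and *Cxcl10*. They were chosen by name, and every non-control probe annotated with one of these names was used. This gave 11 of 55681 probesets and 9 of 36163 gene names on the array. *Isg15* and *Cxcl10* were each covered by 2 probes and the others by 1.

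RNA came from the hippocampus of C57BL/6 mice labelled male and killed on postnatal day (P) 9. Untreated controls (Con) received 0 mg/kg morphine and minimal handling. From P5, MS2 pups received 2 mg/kg and MS5 pups 5 mg/kg morphine, and both groups were also exposed to daily separation from the dam and to brief anoxia followed by oxygen. Each group had 5 one-colour Agilent arrays, and since no group used here received stress without morphine, the effects of morphine and of stress against Con cannot be told apart.

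Type I interferons signal through a shared receptor to transcription factors that bind interferon-stimulated response elements and switch on genes such as *Isg15* and the *Ifit* family. *Irf7* is a transcription factor that is itself induced by interferon and amplifies interferon production. *Il1b*, *Il6* and *Tnf* encode the classical inflammatory cytokines, and *Ccl2* and *Cxcl10* encode chemokines that recruit monocytes and T cells. In the brain, microglia, border macrophages, astrocytes and endothelium can make these factors.

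To show which members carry the response element in front of them, the promoters of RefSeq (GRCm38.p6) were searched for the letters GAAA and GAAA with any 2 bases between them, which read TTTC and TTTC on the other strand. The window ran from 250 bases before to 50 bases after the start of the transcript, and 3.44% of 32851 windows held a match. Of the 8 members in the table (*Ccl2* was not in it), *Isg15* held 3 overlapping matches, *Ifit1* and *Ifit3* held 2 each and *Cxcl10* held 1. *Irf7*, *Il1b*, *Il6* and *Tnf* had no match to these letters in this window. A form of the NF-kappa B site, GGG and TTTCC with any 2 bases between them (GGAAA and CCC on the other strand), was present in 1.63% of the windows and, among the members, in *Il6* alone. The stretches with the matches in capitals are shown 5′ to 3′ on the strand of the gene, for the *Ifit1*, *Isg15*, *Cxcl10* and *Il6* promoters, where each lay before the annotated start of the gene.
Ifit1, chr19:34640770-34640828, plus strand: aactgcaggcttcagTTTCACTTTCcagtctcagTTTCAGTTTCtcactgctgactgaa
Isg15, chr4:156200860-156200911, minus strand: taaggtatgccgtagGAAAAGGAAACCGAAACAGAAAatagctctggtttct
Cxcl10, chr5:92349078-92349117, minus strand: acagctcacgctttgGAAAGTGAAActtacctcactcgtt
Il6, chr5:30013055-30013094, plus strand: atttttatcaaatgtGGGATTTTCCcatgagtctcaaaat

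Levels are log2 values after background correction and quantile normalization. A probeset was counted as well above background on an array when the scanner software said so for more than 50% of its spots. Median spot intensity lay between 120.86 and 153.6 on 14 arrays and was 58.15 on MS2 replicate 5. MS5 replicate 9 went against its male label: *Xist*, the RNA of the inactive X chromosome, was at 11.34 (log2) against at most 6.08 elsewhere, and the Y-linked *Ddx3y* at 6.24 against at least 11.01. On MS2 replicate 4, 14 of 16 hippocampal neuron markers were at their lowest, and their mean log2 level was 10.68 against 12.03 to 12.53 elsewhere. Its median correlation with the other arrays was 0.9898, against at least 0.9955 for each other array. For the probe that represents each gene, fold changes in MS5 versus Con that moved in sign or by over 1.5 times without MS5 replicate 9 are given with and without it. Of 14 choroid plexus markers, 12 passed the study's threshold as lower in MS5 than in Con, with a median log2 difference of -1.28. The count was 6 without MS5 replicate 9 and 7 without MS5 replicate 14. Over all probesets 0.228% passed the threshold in MS5 versus Con, in either direction. The study had already reported many of these markers as lower on these same arrays, so the count is not independent of its result. The part of the choroid plexus in the results below was not tested. The 14 microglial markers were well above background on all 15 arrays.

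None of the 9 genes differed between the groups past the study's threshold, which asks for both a change of over 1.5-fold and an unadjusted p below 0.05. In MS2 versus Con 0 of 9 members were called, where 0.0233% of all probesets were. In MS5 versus Con 0 of 9 were called, against 0.228%, and in MS5 versus MS2 0 of 9, against 0.129%. Nor did any member reach an unadjusted limma p under 0.05, which 4.17%, 3.91% and 3.97% of probesets did. After Benjamini-Hochberg adjustment limma called 0 of all probesets in each comparison. The 2 groups overlapped for each member in each comparison, while 0.699%, 0.832% and 0.625% of probesets did not overlap. With 9 genes, shares this low leave a count of 0 close to the background.

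The sizes of the differences were small on this scale. They are given for 8 genes, since *Il6* was not well above background on any array. The log2 fold change of MS2 versus Con ran from -0.04 to 0.18 with a median of 0.02, while the median of all probesets was -0.0017. It ran from -0.04 to 0.18 without MS2 replicate 4 and from -0.02 to 0.25 without MS2 replicate 5. In MS5 versus Con it ran from -0.03 (*Irf7*) to 0.22 (*Ifit3*) with a median of 0.12, and 7 genes were higher and 1 lower. In MS5 versus MS2 all 8 were higher, by 0.02 to 0.14. With median centring in place of quantile normalization 5 were higher and 3 lower in MS5 versus MS2. Without MS5 replicate 9 these counts became 3 higher and 5 lower in MS5 versus Con, with a median of -0.03, and 3 higher and 5 lower in MS5 versus MS2, with a median of -0.02. Without MS2 replicates 4 and 5 and MS5 replicate 9, 1 was higher and 7 were lower in MS5 versus MS2, with a median of -0.08.

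The 95% limits of the fit excluded a 1.5-fold change, 0.585 on the log2 scale, for 8 of 8 genes in each comparison. The offset of 50 added to each signal draws fold changes of dim genes toward 0. With an offset of 0 the limits excluded a 1.5-fold change for 6 of 8 genes in MS2 versus Con, 3 of 8 in MS5 versus Con and 4 of 8 in MS5 versus MS2. With the processed signal they did so for 2, 2 and 3 of 8. In MS5 versus Con the limits no longer excluded it for *Cxcl10* without Con replicate 17 or 18 or with only the 2 groups fitted, or for *Cxcl10* and *Ccl2* without MS5 replicate 8, 12, 13 or 14. In MS2 versus Con they no longer did so for *Cxcl10* without Con replicate 18, with an upper limit of 0.5867.

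**Figure D1:**
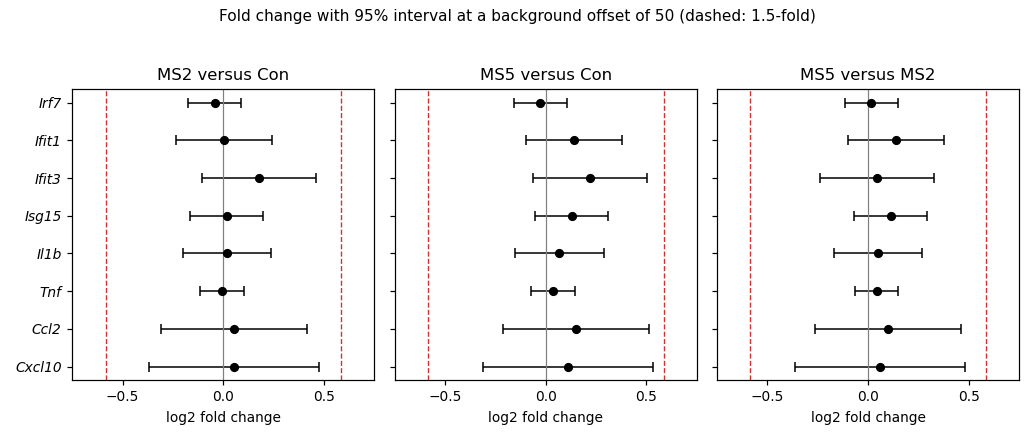
Log2 fold change of 8 genes in MS2 versus Con, MS5 versus Con and MS5 versus MS2 (points, with 95% limits from limma; 5 arrays a group, offset of 50). Dashed lines mark a 1.5-fold change; all intervals cross 0 and lie inside the dashed lines, and *Il6* is left out because it was not well above background on any array.

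Of the interferon response genes, *Ifit3*, whose product binds other IFIT proteins and restrains viral replication, had the largest difference from Con. Its levels were 7.88, 7.89, 8.10, 8.13 and 8.31 in Con. They were 7.97, 8.14, 8.23, 8.24 and 8.61 in MS2 and 7.97, 8.07, 8.39, 8.41 and 8.58 in MS5. The groups overlapped, and the highest level was on MS2 replicate 1, with MS5 replicate 9 next. *Ifit3* differed by 0.18 on the log2 scale in MS2 (limma p = 0.203, exact permutation p = 0.206) and 0.22 in MS5 (limma p = 0.117, exact permutation p = 0.143). Without MS5 replicate 8 the latter was 0.30 with a limma p of 0.0386, and without MS5 replicate 9 it was 0.15. The MS2 value was 0.08 without MS2 replicate 1. The neighbouring gene *Ifit3b* is a close copy, so the signal may include its transcripts.

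*Isg15*, a ubiquitin-like protein that is joined to other proteins after interferon exposure, was well above background on all arrays. Its brighter probe stood at 9.51, 9.58, 9.60, 9.67 and 9.73 in Con, at 9.32, 9.61, 9.71, 9.76 and 9.78 in MS2 and at 9.60, 9.68, 9.70, 9.84 and 9.93 in MS5. MS5 replicates 9 and 12 were above all other arrays and the rest overlapped. For MS5 versus Con the log2 fold change was 0.13 (limma p = 0.153, exact permutation p = 0.127), and with the second probe it was 0.09 (limma p = 0.285, exact permutation p = 0.262). Without MS5 replicate 9 the first of these was 0.08 (p = 0.346 by limma, with no permutation test). The second probe was also highest on that array, at 7.09, and its fold change without that array was not computed. *Isg15* differed by 0.02 in MS2, and by -0.02 without MS2 replicate 4.

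*Ifit1*, which binds foreign RNA that lacks the host cap, was dimmer. Its levels were 6.34, 6.44, 6.53, 6.56 and 6.57 in Con, 6.14, 6.47, 6.57, 6.61 and 6.66 in MS2 and 6.42, 6.47, 6.55, 6.68 and 7.01 in MS5. The lowest of these was on the dim array MS2 replicate 5, the only array on which *Ifit1* was not well above background, and the highest on MS5 replicate 9. In MS5 *Ifit1* had a log2 fold change of 0.14 (limma p = 0.222, exact permutation p = 0.262), and 0.05 without MS5 replicate 9. In MS2 it was 0.0025, 0.09 without MS2 replicate 5 and MS5 replicate 9, and -0.04 without MS2 replicate 4.

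*Irf7* had slightly lower means in both treated groups. Its mean level was 6.74 ± 0.13 (SD, n = 5) in Con, 6.70 ± 0.09 in MS2 and 6.72 ± 0.05 in MS5. Its log2 fold change was -0.04 in MS2 and -0.03 in MS5, and the limma limits in MS5 were -0.16 and 0.11. The MS2 value was 0.06 on the slide with 3 Con and 3 MS2 arrays and -0.20 on the slide with 2 of each.

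The pathway around these genes was read from lists of genes written down by function. Of 62 other interferon-stimulated genes on the array, 56 were well above background on all 15 arrays, and 0 were called in any comparison. In MS5 versus Con 30 were higher and 32 lower, with a median log2 fold change of -0.0019. An unadjusted limma p under 0.05 was reached by 3 of the 62, all lower, which is near the 3.91% of all probesets that reached it. Of 15 interferon genes, 17 interferon receptor and signal transducer genes and 19 nucleic acid sensor and adaptor genes, 0 were called in any comparison. The median log2 fold changes of these lists in MS5 were 0.01, -0.01 and -0.04.

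**Figure D2:**
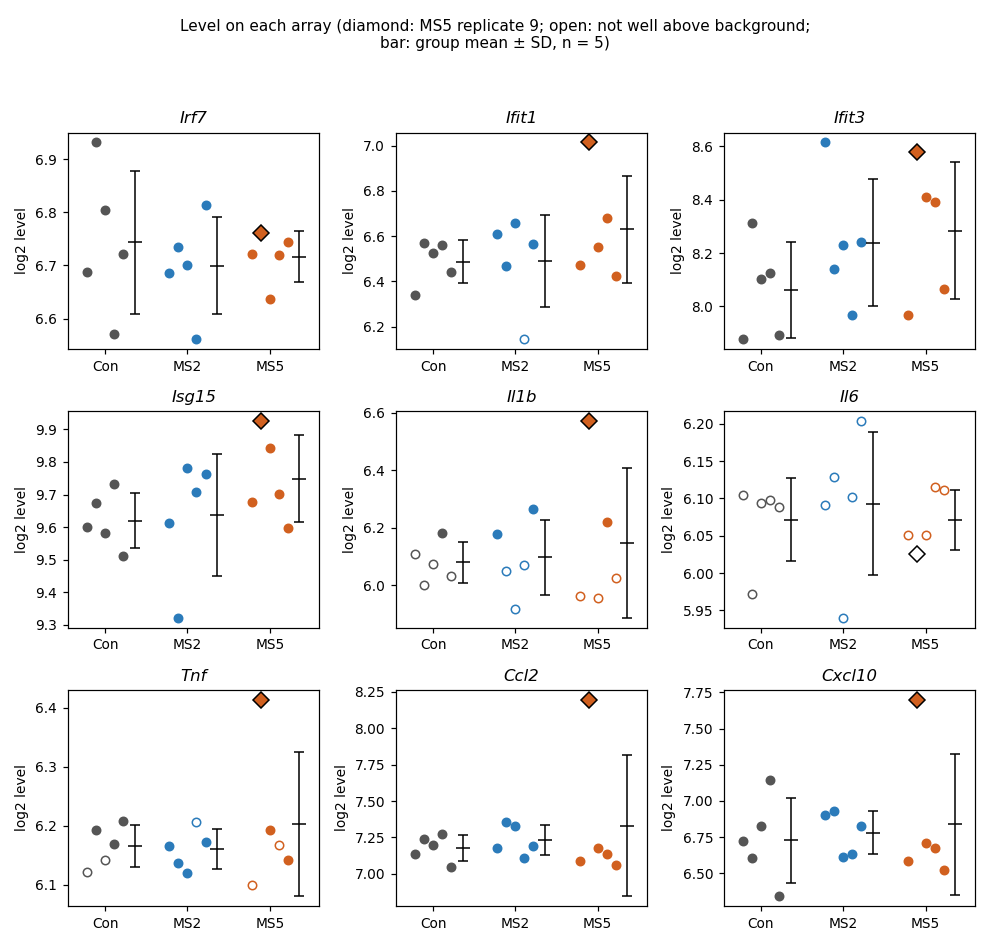
Log2 level of the 9 genes on each array, by group (Con, MS2 and MS5, 5 arrays each), with the group mean ± SD. Open symbols were not well above background and the diamond is MS5 replicate 9, which is the highest of the 15 arrays for *Ifit1*, *Isg15*, *Il1b*, *Tnf*, *Ccl2* and *Cxcl10*.

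The inflammatory cytokines lay close to the background. *Il6*, which drives the acute phase response, was well above background on 0 of 15 arrays, with levels between 5.94 and 6.20. *Il1b*, the inflammasome-processed cytokine, was well above background on 1 Con, 2 MS2 and 2 MS5 arrays. *Tnf* was so on 3 Con, 4 MS2 and 3 MS5 arrays. Differences of these genes are therefore partly differences between background values.

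The probes of *Il1b* and *Tnf* were printed on 10 spots of each array. *Il1b* stood at 6.00, 6.03, 6.07, 6.11 and 6.18 in Con, at 5.92, 6.05, 6.07, 6.18 and 6.27 in MS2 and at 5.96, 5.96, 6.03, 6.22 and 6.57 in MS5. The last of these was MS5 replicate 9, and the other MS5 arrays lay among the Con and MS2 arrays. Against Con, MS5 gave a log2 fold change of 0.07 (limma p = 0.518, exact permutation p = 0.738), and -0.04 without MS5 replicate 9. *Tnf* lay between 6.12 and 6.21 in Con, between 6.12 and 6.21 in MS2 and between 6.10 and 6.41 in MS5, and MS5 replicate 9 was again the highest. Its log2 fold change in MS5 was 0.04 (limma p = 0.48, exact permutation p = 0.73), and -0.02 without that array.

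Of 36 other interleukin, tumour necrosis factor family and colony stimulating factor genes, 16 were well above background on all arrays and 10 on none, and 0 were called in any comparison. Of 16 receptors and processing enzymes of the member cytokines 0 were called. In MS5 versus Con 4 were higher and 12 lower, and 3 of the 16 had an unadjusted limma p under 0.05, which 3.91% of all probesets had.

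The chemokines *Ccl2* and *Cxcl10* had the widest spread in MS5, where 1 array lay far above the rest. *Ccl2*, the main attractant of monocytes, stood at 7.05, 7.14, 7.20, 7.24 and 7.27 in Con and at 7.11, 7.18, 7.19, 7.33 and 7.36 in MS2. In MS5 the levels were 7.06, 7.09, 7.13, 7.18 and 8.20. The highest was MS5 replicate 9, and the other MS5 arrays lay within the range of the Con arrays. The log2 fold change in MS5 was 0.15 (limma p = 0.385, exact permutation p = 0.889), and -0.06 (limma p = 0.299) without that array. By slide it was -0.09 on the slide with 2 MS5 arrays and 0.34 on the slide with 3, which held MS5 replicate 9. In MS2 *Ccl2* differed from Con by 0.05 (exact permutation p = 0.421).

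*Cxcl10*, an interferon-induced attractant of activated T cells, stood at 6.34, 6.61, 6.73, 6.82 and 7.14 in Con and at 6.61, 6.63, 6.82, 6.90 and 6.93 in MS2. In MS5 it stood at 6.52, 6.58, 6.68, 6.71 and 7.70. The Con range enclosed each MS2 and MS5 array except MS5 replicate 9. The log2 fold change in MS5 was 0.11 (limma p = 0.586, exact permutation p = 0.73), and -0.11 without that array. On these slides it was -0.27 and 0.50. The second *Cxcl10* probe, designed on another transcript, was well above background on no array.

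Of 33 other chemokines, *Ccl8* was the 1 called gene, in MS5 versus Con and in MS5 versus MS2. Of all probesets 0.228% and 0.129% were called there. In MS5 versus Con 3 of the 33 had an unadjusted limma p under 0.05, 2 higher and 1 lower, which 3.91% of all probesets had. Levels of *Ccl8* were 6.37, 6.42, 6.49, 6.55 and 6.86 in Con and 6.29, 6.31, 6.38, 6.48 and 6.64 in MS2. In MS5 they were 6.38, 6.59, 7.29, 8.27 and 8.64, with MS5 replicate 9 the lowest of them, so 3 arrays were above all Con and MS2 arrays and the other two among them. The log2 fold change was 0.89 against Con (limma p = 0.0201, adjusted p = 1, exact permutation p = 0.0952) and 1.01 against MS2 (limma p = 0.01, exact permutation p = 0.0556). The limma call against Con was lost when either of the 2 highest arrays was left out, at 0.59 (p = 0.0572 by limma, against an exact permutation p of 0.0952 with all arrays) without MS5 replicate 14 and at 0.68 without MS5 replicate 12. Without MS5 replicate 9 the fold change was 1.16.

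MS5 replicate 9 was thus the highest of the 15 arrays for 6 of the 9 genes, or 66.7%, while it was the highest for 7.26% of all 36163 genes. Its log2 level exceeded the mean of the other 14 arrays by 1.02 for *Ccl2*, 0.98 for *Cxcl10*, 0.51 for *Ifit1*, 0.50 for *Il1b*, 0.28 for *Isg15* and 0.25 for *Tnf*. *Ifit3* was 0.41 above that mean and *Irf7* 0.04 above. With an offset of 0 the difference was 1.36 for *Ccl2*, 1.54 for *Cxcl10* and 1.42 for *Il1b*. These values describe a single animal.

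For 3 of these genes the repeated spots give the error within an array. All 10 *Ccl2* spots on MS5 replicate 9, from 7.92 to 8.40, lay above all 140 spots of the other arrays, whose highest was 7.57. All 10 *Il1b* spots, from 6.44 upward, likewise lay above the highest of the 140 others at 6.41. Of the 10 *Tnf* spots 0 lay above all others, since single spots elsewhere reached 6.67. The median SD between spots of an array was 0.11 for *Ccl2*, 0.06 for *Il1b* and 0.08 for *Tnf*.

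**Figure D3:**
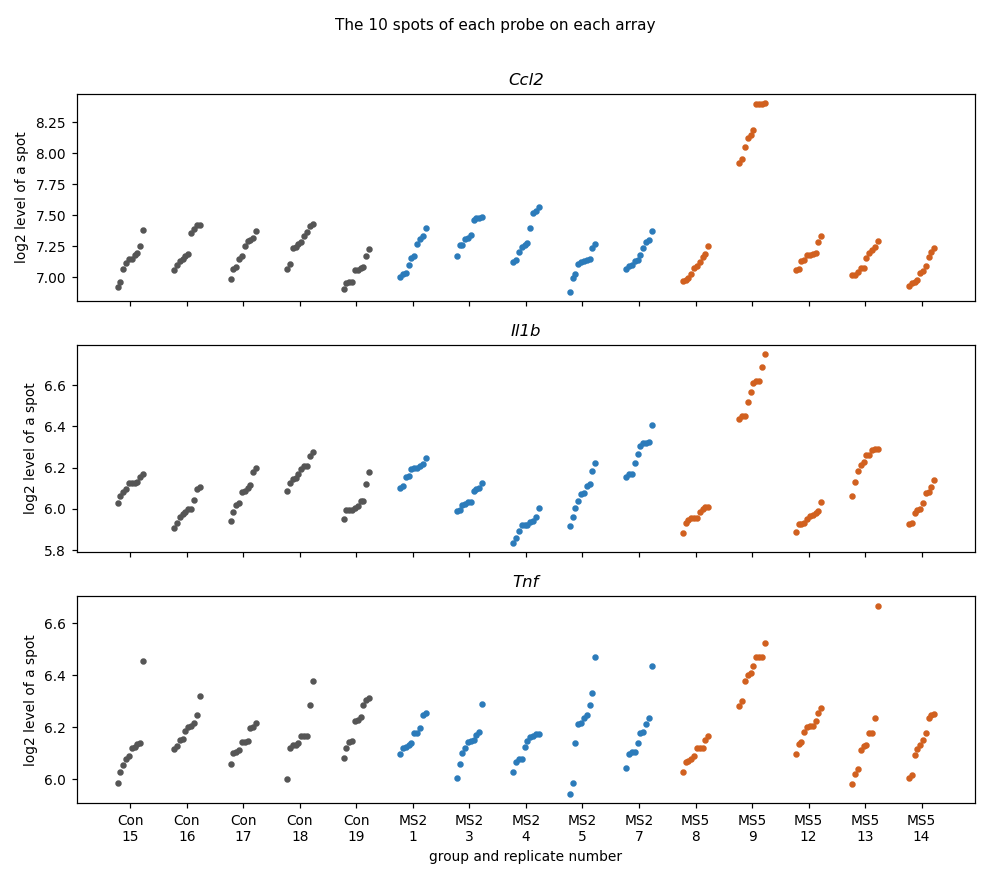
Log2 level of each of the 10 spots for *Ccl2*, *Il1b* and *Tnf* on each of the 15 arrays, sorted within an array and labelled by group and replicate number. On MS5 replicate 9 all *Ccl2* and *Il1b* spots lie above all spots of the other arrays, whereas the *Tnf* spots overlap single high spots elsewhere.

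Of all 36163 genes, 518 (1.43%) were over 0.4 above the mean of the other arrays on MS5 replicate 9. Those named here were chosen after their values were seen. Among the other chemokines *Ccl24*, an eosinophil attractant, was 1.28 above the mean of the other arrays. Its level was 8.63 there and 7.24 to 7.69 on the other MS5 arrays. It was 6.98 to 7.36 in Con and 6.96 to 7.52 in MS2. *Ccl7* and *Ccl12*, which lie in the same cluster as *Ccl2*, were 0.81 and 0.43 above the mean of the other arrays. *Casp1*, the protease that matures interleukin 1 beta, was at 10.62 against at most 10.45 elsewhere, and *Lyve1*, carried by lymphatic vessels and border macrophages, at 8.55 against at most 8.16. As a list, the 33 other chemokines had 22 above and 11 below the mean of the other arrays. Their median difference was 0.01 and their lowest -0.45. The 16 receptors and processing enzymes, *Casp1* among them, had 7 above and 9 below, with a median of -0.05. The other 62 interferon-stimulated genes had 27 above and 35 below, with a median difference of -0.02 and a highest of 0.25. Of the 36 other cytokines 0 were highest on that array.

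Cell type markers on that array were as follows, and their part in the member levels was not tested. All 14 microglial markers were below the mean of the other arrays on MS5 replicate 9, with a median difference of -0.22. The mean level of the microglial list was 11.73 there, 11.70 on MS2 replicate 4 and 11.74 on Con replicate 18. Of 15 markers of monocytes, border macrophages and neutrophils 13 were above, with a median of 0.17, and 3 were at their highest. The mean level of this list was 8.24 there, below 8.38 on MS2 replicate 1 and 8.33 on Con replicate 19. Of 12 markers of meninges and fibroblasts 9 were above, with a median of 0.27 and a highest of 0.82. Their mean level was 11.57 there, below 11.84 on Con replicate 16, 11.79 on MS2 replicate 1 and 11.65 on MS2 replicate 3. Of 16 hippocampal neuron markers 8 were above and 8 below, with a median of 0.02 and a highest of 1.16. Of 15 lymphocyte markers 11 were above, with a median of 0.03, and *Cd3e* was 0.51 above. *Cd3e* was at 10.49 there, at 10.41 and 10.26 on MS5 replicates 14 and 12, and at most 10.21 on the remaining arrays. All 14 choroid plexus markers were below, with a median of -1.70. The mean level of this list was 9.36 there but lower still, at 8.44, on MS5 replicate 14. On the remaining arrays it lay between 10.67 and 11.88. In tissue RNA, fewer cells of a type and less RNA per cell cannot be told apart.

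**Figure D4:**
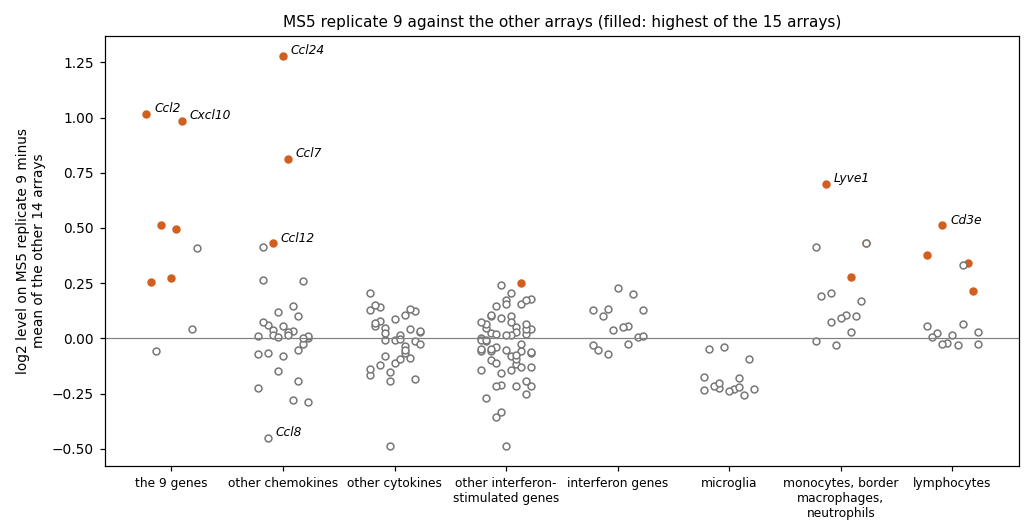
Log2 level on MS5 replicate 9 minus the mean of the other 14 arrays, a point for each gene, for the 9 genes and for lists of related genes and cell type markers. Filled points are highest on that array. The members reach 1.02 (*Ccl2*) and the other chemokines 1.28 (*Ccl24*). The other interferon-stimulated genes scatter around 0, and all 14 microglial markers lie below 0.

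Across the 15 arrays, the genes most like each member were found by Pearson's r over 25527 genes well above background on all arrays. For *Ccl2* these were *Cd209f*, a lectin of macrophages (r = 0.94), *Ctsm* (0.89) and *Cxcl10* (0.88). Without MS5 replicate 9, where *Cd209f* was at 9.75 against at most 7.85 elsewhere, these fell to 0.59, -0.08 and 0.62. For *Cxcl10* they were *Cd209f* (0.92), *Foxj2* (0.89) and *Ccl2*, and the first of these was 0.80 without that array.

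The interferon response genes had other partners. For *Ifit3* they were *Fmo1* (r = 0.91), *Ifitm1*, an interferon-induced membrane protein (0.87), and *Gm7676* (0.82), and the first pair was 0.92 and 0.87 without MS5 replicate 9. For *Isg15* they were *Oas1a*, an interferon-induced sensor of double-stranded RNA (0.79, and 0.89 without that array), *Oxnad1* (0.77) and *Phactr3* (0.75). For *Irf7* 2 of the 3 were probes with no gene symbol, and the third was *Gucy2e* (0.80). These correlations share the arrays and their normalization and are descriptions.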

How the data were processed

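The 15 mRNA arrays were used, and 9 miR arrays were not used here. The mRNA scanner files, deposited by the authors, hold spot intensity (Feature Extraction 10.7.1.1) without normalization between arrays. In the deposited series table the authors gave log2 values after normexp correction and quantile normalization. It was rebuilt from the first spot of each probe within 5e-09, and averaging the spots moved 4 of the 11 member probesets by over 0.01, at most 0.33. R 4.3.3 and limma 3.58.1 were used: normexp with an offset of 50, quantile normalization of 62976 spots, log2, removal of 3671 control spots and averaging of spots. Groups were compared in 1 limma fit of 3 groups (lmFit and eBayes). Exact permutation tests were two-sided over 252 assignments, with a smallest p of 0.00794. The fits were tested on simulated data. A gene was represented by its probeset named A_51 or A_52, otherwise by the brightest. Named genes were the members, called genes of the lists and, for members well above background on all arrays, the 3 most correlated genes. Genes named for their level on MS5 replicate 9 (*Ccl24*, *Ccl7*, *Ccl12*, *Casp1*, *Lyve1* and *Cd3e*) were chosen after their values were seen. Called choroid plexus markers are given as a count. Of the lists, *Ifi27*, *Ifi205*, *Ifna6*, *Ifna9*, *Ifnz*, *Il28a*, *Mb21d1* and *Ly6c2* had no probe under that name. The members, lists and rules were chosen with earlier results of these data known. Slides were 2, each scanned separately. The number of arrays limited the precision. The labels give separate pups, and litters were not given in the sources used here.

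The lists of 14 microglial, 15 monocyte, macrophage and neutrophil, 15 lymphocyte, 14 endothelial and mural, 8 erythroid, 12 meningeal, 10 astrocyte and 16 hippocampal neuron markers had 0 called genes in each comparison, and all 16 of the last were well above background on all arrays. Of the choroid plexus markers 0 were called in MS2 versus Con and 9 of 14, lower, in MS5 versus MS2, where 0.0233% and 0.129% of all probesets were. Alternatives were an offset of 0, the processed signal scaled to the 75th percentile, median centring, a filter on dim probesets, the slide as a block, the series table, only the 2 groups compared, array weights, outlier spots left out, the brightest probeset, each array left out, and values within slides. Leaving out MS2 replicate 5 and MS5 replicate 9 together, with or without MS2 replicate 4, and the alternatives for the level of that array, were chosen after seeing the data.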

Additional observations from a re-analysis of the deposited data

Results flagged for a closer look

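*Ccl2* at 8.20 and *Cxcl10* at 7.70 (log2) on MS5 replicate 9 were flagged because the array lay far from the 4 others of its group by Dixon's test, which chance meets in about 1 of 20 groups. *Il6* at 5.97 on Con replicate 16 was flagged in the same way, at a level not above background. These were 3 of 33 probe and group combinations tested for the members.

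On MS5 replicate 9 *Xist* at 11.34 and *Ddx3y* at 6.24 were far from the rest of the group, against the male label. *Xist* on Con replicate 19, at 6.08 and not above background, was also far from the other Con arrays.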

How the results depend on the processing

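No member was called in any of the 27 other fits, and the lowest unadjusted limma p of a member in them was 0.0254, for *Ccl2* in MS5 versus MS2 without MS2 replicate 5 and MS5 replicate 9 (-0.15). Of 369 member fold changes (*Il6* included) under other settings and within slides, 71 had another sign, and of 405 with 1 array left out, 39 had another sign. None of those taken from a fit passed the threshold. The values within slides had no test and could not pass it. The largest absolute log2 fold change of a member was 0.22 in the main fit, 0.45 with the processed signal (*Ifit1*, MS5 versus MS2), and between 0.17 and 0.30 with 1 array left out. Within slides it reached 0.50 (*Cxcl10*, MS5 versus Con, on the slide that held MS5 replicate 9). The number of members well above background on all arrays was 5, or 6 in the fits without MS2 replicate 5.

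Counts over all probesets moved more. For MS2 versus Con, MS5 versus Con and MS5 versus MS2 they were 13, 127 and 72. They were 230, 401 and 370 with an offset of 0, and 522, 623 and 592 with the processed signal. The calls that were higher among them were 9, 25 and 10, then 128, 132 and 101, then 359, 294 and 173. With median centring 3 of 16, 23 of 139 and 20 of 75 calls were higher. With array weights the MS5 counts were 203 and 158, with only the 2 groups compared the MS5 versus MS2 count was 38, and without MS2 replicate 5 and MS5 replicate 9 the MS2 versus Con count was 39. In that fit 22 of 39, 49 of 108 and 68 of 84 calls were higher, so that most MS5 versus MS2 calls turned from lower to higher. With MS2 replicate 4 left out too, 11 of 18, 112 of 177 and 160 of 199 were higher. Leaving out 1 array gave 7 (Con replicate 18) to 42 (MS2 replicate 5), 62 (MS5 replicate 14) to 214 (MS5 replicate 12), and 15 (MS5 replicate 14) to 106 (MS5 replicate 12). The cause of these shifts was not tested. The *Ccl8* call against Con was lost without MS5 replicate 14 (0.59) or 12 (0.68) and kept in the other fits.

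Dim signal limits *Il6*, *Il1b* and *Tnf*. No paired analysis was possible because the groups compared share no replicate number.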
